A study of Homo sapiens with 8 samples.

Results

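The 46 genes described here act at the G1/S boundary and in DNA replication. They encode G1 cyclins, E2F activators, origin licensing and helicase factors, the sliding clamp and its loader, polymerase subunits, enzymes of deoxynucleotide supply and proteins that rebuild chromatin behind the fork. They were taken by symbol from a list of members, and each was found among the 60564 genes of the deposited table. All 46 passed the filter on low counts and were among the 16884 genes tested. Polyadenylated RNA was sequenced from AB8/13, a human podocyte line. The cells grew at 33 °C and were held at 37 °C for 5 days so that they would differentiate. The control group (4 libraries) received a non-targeting shRNA by lipid transfection. The ATOH8 knockdown group (4 libraries) received in the same way an shRNA against ATOH8, which encodes a helix-loop-helix transcription factor, and the question was how expression differs between these groups. All libraries come from 1 immortalised line, and the labels give neither the sequence nor the number of the shRNAs.

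Entry into S phase follows from cyclin D and cyclin E kinases, which phosphorylate the RB proteins and so release E2F factors to switch on replication genes. Origins are licensed when ORC, CDC6 and CDT1 load the MCM2-7 helicase, and they fire when CDC45 and GINS join it. Podocytes in the adult kidney are post-mitotic, and in AB8/13 proliferation is driven by a temperature-sensitive viral antigen that is inactivated at the higher temperature.

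The libraries held 21108695 to 27109043 counts each, of which 4.37% to 5.09% were mitochondrial. The targeted gene ATOH8 (chromosome 2) stood at 41.7% of its control level and did not overlap between groups (log2 -1.26, SE 0.127, edgeR adjusted p = 1.78e-09, two-sided exact permutation p = 0.0286, the smallest that 4 against 4 libraries allow). Of 12 podocyte markers, the adhesion and cytoskeletal genes KIRREL1, ACTN4, CD2AP and SYNPO were present, whereas the slit diaphragm gene NPHS1 had at most 6 counts in any library. The summed level of the 12 markers was 1897 to 1990.3 CPM (counts scaled to library size by TMM) in control and 1905 to 1999 CPM in knockdown libraries, and of 8 tested 2 rose and 4 fell, with a median log2 change of -0.22. The summed level of 10 mesangial and pericyte markers was 547 to 563 CPM in control and 613 to 649.7 CPM in knockdown libraries, and of 7 tested 4 rose and 1 fell. For 10 endothelial markers the sums were 36.1 to 39.2 and 53.6 to 55.0 CPM, with EMCN at 0, and of 6 tested 4 rose and 0 fell. For 8 leukocyte markers they were 76.5 to 86.5 and 103 to 113 CPM, nearly all from CD68, with PTPRC at 0 to 2 counts per library, and of 3 tested 2 rose and 0 fell. Among all genes tested, 25.2% rose and 25.9% fell by the same test (edgeR adjusted p below 0.05). The part of these markers in the results below was not tested.

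The replication genes went both ways and mostly by small amounts. Of the 46 members, 16 rose (34.8%), 12 fell (26.1%) and 18 did not pass the test, where 25.2% of all tested genes rose and 25.9% fell, together 51.1% (edgeR quasi-likelihood test, adjusted p below 0.05). The median log2 fold change of knockdown against control was 0.01 over the members, within a range of -0.46 to 0.84, and -0.00 over all genes tested. Against a minimum fold of 1.2 (edgeR's glmTreat), 6 members passed. The cyclin gene CCND2 and the GINS subunit gene GINS4 were the 2 that rose past it, and CCNE1, CCNE2, MCM6 and PRIM1 were the 4 that fell past it. Among all genes tested, 8.9% rose and 7.44% fell past this fold, together 16.3%. The groups did not overlap in CPM for 24 members, 13 higher and 11 lower in knockdown. For all genes tested this was so for 22.4% (higher) and 23.2% (lower), together 45.6%. All 46 members together held 5164 to 5249 CPM in control and 5305 to 5510.5 CPM in knockdown libraries. The absence of overlap rested on CCND1, the member with the most counts, at 663 to 688 of these CPM in control and 742 to 828 in knockdown libraries. Without CCND1 the sum was 4501 to 4566 CPM in control libraries, 4657.5 to 4749 CPM in knockdown replicates 1 to 3 and 4477.5 CPM in knockdown replicate 4, below every control. The libraries of a group are called biological replicates in the design text, but separate cultures or transfections are not mentioned, so the p-values reflect library-to-library spread that may be technical. In bulk RNA, fewer cells of a type and less RNA per cell cannot be told apart.

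**Figure D1:**
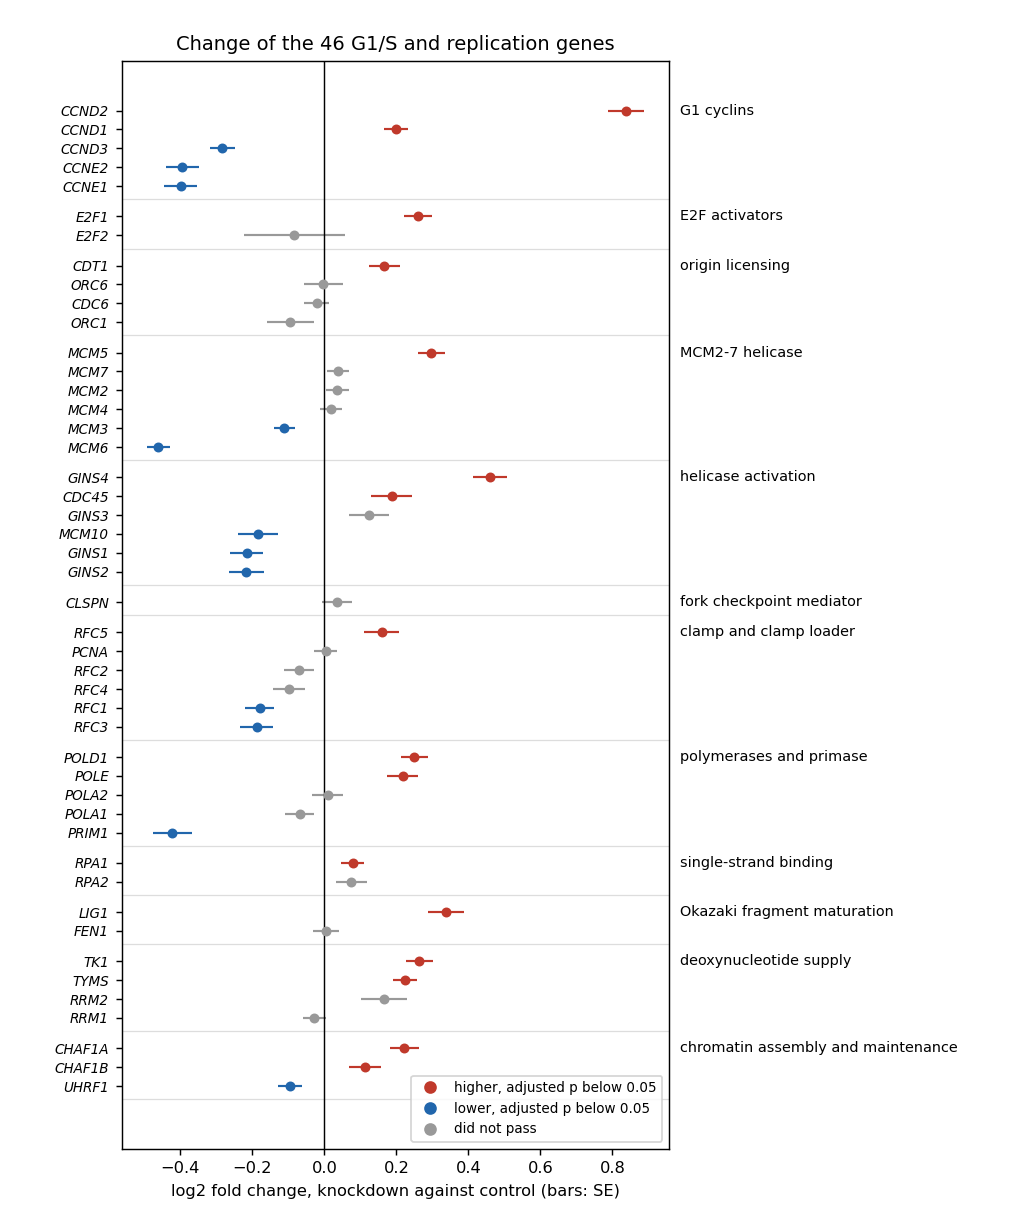
Log2 fold change of knockdown against control for each of the 46 members (points, with bars of 1 SE), grouped by role along the vertical axis. Red points rose and blue points fell at an adjusted p below 0.05, and grey points did not pass. CCND2 at 0.84 is the highest and MCM6 at -0.46 the lowest, and most roles with several members hold changes on both sides of 0.

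Sequences just before the start sites are shown for members that rose and members that fell, because E2F factors are the textbook regulators of this gene set and their letters stood before genes of both directions. RefSeq promoter windows (250 bases before to 50 after a start, GRCh38.p14) were found for 39 of the 46 members. The E2F letters searched on both strands were TTTCCCGC, TTTCGCGC, TTTGCCGC and TTTGGCGC, some of which overlap one another in a window. They occurred in windows of 20 of the 39 members (51.3%), against 6.49% of 11701 tested genes with a window and 3.99% of all 27305 genes with one. By direction they occurred for 5 of 12 members that rose, 6 of 11 that fell and 9 of 16 that did not pass. Each line below holds the 200 bases before the start, on the strand of the gene, with the matched letters in capitals. The members shown were chosen for these letters, as those with the smallest p in each direction that hold them in this stretch. TK1, which rose, and CCND3, CCNE1 and PRIM1, which fell, had no E2F letters in their windows and were passed over. TYMS (chr18:657453-657652, plus strand), E2F1 (chr20:33686386-33686585, minus strand) and LIG1 (chr19:48170345-48170544, minus strand) rose.
TYMS: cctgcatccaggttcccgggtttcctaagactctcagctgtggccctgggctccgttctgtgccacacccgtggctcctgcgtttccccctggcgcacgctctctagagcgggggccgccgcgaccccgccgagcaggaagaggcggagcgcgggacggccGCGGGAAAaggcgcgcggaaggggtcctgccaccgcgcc
E2F1: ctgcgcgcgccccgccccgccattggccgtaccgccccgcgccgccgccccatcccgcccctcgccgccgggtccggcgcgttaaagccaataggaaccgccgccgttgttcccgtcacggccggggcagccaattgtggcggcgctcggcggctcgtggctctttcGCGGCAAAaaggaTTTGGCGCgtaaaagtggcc
LIG1: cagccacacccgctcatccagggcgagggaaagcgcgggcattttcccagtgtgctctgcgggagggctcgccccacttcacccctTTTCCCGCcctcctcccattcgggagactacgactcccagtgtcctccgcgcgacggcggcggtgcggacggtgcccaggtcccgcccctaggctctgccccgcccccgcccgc
MCM6 (chr2:135876444-135876643, minus strand), GINS2 (chr16:85688955-85689154, minus strand) and RFC3 (chr13:33817949-33818148, plus strand) fell.
MCM6: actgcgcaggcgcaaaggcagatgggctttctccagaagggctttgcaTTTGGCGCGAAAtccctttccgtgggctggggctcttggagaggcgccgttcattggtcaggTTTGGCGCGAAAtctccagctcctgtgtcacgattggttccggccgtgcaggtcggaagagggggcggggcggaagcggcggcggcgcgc
GINS2: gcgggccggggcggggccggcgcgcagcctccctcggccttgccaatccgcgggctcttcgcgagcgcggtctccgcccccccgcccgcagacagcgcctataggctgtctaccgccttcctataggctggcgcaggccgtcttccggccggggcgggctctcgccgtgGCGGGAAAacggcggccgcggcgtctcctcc
RFC3: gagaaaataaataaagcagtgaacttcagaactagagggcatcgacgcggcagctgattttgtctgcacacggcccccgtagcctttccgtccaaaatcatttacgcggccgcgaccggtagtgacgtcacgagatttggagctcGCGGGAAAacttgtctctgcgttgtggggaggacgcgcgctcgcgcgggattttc
MCM6, the member that fell most, carried 4 matches in 2 identical stretches, the first of which began 152 bases and the second 90 bases before the start. In TYMS the match began 39 bases before the start, in GINS2 31 bases and in RFC3 55 bases before it. A match describes letters in this window and does not show binding.

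A different set of letters marked the promoters of genes for G2 and mitosis, which serve as a comparison below. The CHR letters TTTGAA, searched on both strands, occurred in windows of 1 of 39 members (RRM1) and of 19 of 29 G2 and mitosis genes (65.5%), against 13.7% of tested genes. The E2F letters occurred for 3 of those 29. The letters CCAAT, on both strands, occurred for 25 of 39 members, 25 of 29 G2 and mitosis genes and 42.7% of tested genes. HMMR (chr5:163460432-163460631, plus strand), a spindle-associated gene, had the smallest p of the comparison genes with CHR letters in the 200 bases before the start. It was chosen for these letters, whereas CCNB1, also among the genes with the smallest adjusted p, had none in its window. The CHR letters of HMMR are in capitals and began 28 and 22 bases before the start.
HMMR: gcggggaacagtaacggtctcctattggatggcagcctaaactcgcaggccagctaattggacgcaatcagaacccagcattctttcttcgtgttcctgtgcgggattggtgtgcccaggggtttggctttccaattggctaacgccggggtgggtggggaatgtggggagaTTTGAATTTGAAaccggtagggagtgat

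All 5 G1 cyclin genes changed, 2 upward and 3 downward. CCND2, which encodes the cyclin D2 partner of CDK4 and CDK6, stood at 21.9, 22.6, 20.8 and 22.3 CPM in the control libraries and 38.5, 41.3, 36.2 and 40.5 CPM in the knockdown libraries. Every knockdown library was above every control library, and the difference was 1.79-fold (log2 0.84, SE 0.0506, edgeR adjusted p = 3.41e-14). CCND1, for cyclin D1, rose from 674 ± 13.3 to 774 ± 37.5 CPM (SD, n = 4), a log2 change of 0.20 (edgeR adjusted p = 1.05e-05). CCND3, for cyclin D3, fell from 88.7 ± 2.32 to 72.9 ± 2.01 CPM (log2 -0.28). Per length the order of the D cyclins was the same in both groups, with CCND1 at 539 ± 9.18 TPM (counts per length, scaled to a fixed sum), CCND3 at 59.1 ± 1.45 and CCND2 at 11.8 ± 0.438 in control libraries. In knockdown libraries they were at 632 ± 31.7, 49.6 ± 0.892 and 21.6 ± 1.46 TPM, so CCND2 stayed the lowest D cyclin after its rise. 13.8% of the exon bases of CCND2 are shared with AC008012.1, a gene on the same strand that itself rose by 0.34 on the log2 scale.

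The E-type cyclins, which activate CDK2 at the G1/S boundary, both fell. CCNE1 stood at 34.7, 34.4, 34.1 and 35.97 CPM in the control libraries and 25.2, 27.2, 26.6 and 26.6 CPM in the knockdown libraries. The groups were well apart, and the level in knockdown was 24.2% below control (log2 -0.40, SE 0.0462, edgeR adjusted p = 2.48e-08). CCNE2 fell from 73.03 ± 2.71 to 55.5 ± 4.13 CPM (SD, n = 4, log2 -0.39, SE 0.0451, edgeR adjusted p = 4.02e-08). Exons of CCNE2 overlap those of INTS8 on the other strand over 37.1% of their length, and whether counting used strand is not stated. INTS8 itself was at -0.11 on the log2 scale (edgeR adjusted p = 0.0599).

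Of the E2F activators, E2F1 rose and E2F2 did not pass. E2F1, which drives transcription of many replication genes, stood at 47.8, 49.8, 48.4 and 49.7 CPM in the control libraries and 58.1, 56.9, 58.2 and 61.3 CPM in the knockdown libraries. All knockdown values exceeded all control values (log2 0.26, SE 0.0389, edgeR adjusted p = 1.95e-06). E2F2 stood at 3.67, 4.24, 4.75 and 3.03 CPM in the control libraries and 4.43, 3.103, 3.49 and 3.74 CPM in the knockdown libraries. These ranges overlapped (log2 -0.08, SE 0.14, edgeR adjusted p = 0.648), and E2F2 was the lowest of the members per length, at 2.78 ± 0.55 TPM in control libraries.

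Of the 4 origin licensing genes, CDT1 rose and the other 3 did not pass. CDT1, the loader that brings MCM2-7 to origins, stood at 41.5, 42.7, 41.3 and 40.5 CPM in the control libraries and 48.3, 46.8, 47.2 and 44.1 CPM in the knockdown libraries. Its groups did not overlap, and the rise was 1.12-fold (log2 0.17, SE 0.0422, edgeR adjusted p = 0.00152). CDC6, the ATPase that works with CDT1, was at 99.04 ± 2.98 CPM in the controls and 97.5 ± 2.92 CPM after knockdown (SD, n = 4, log2 -0.02, edgeR adjusted p = 0.641). ORC6, a subunit of the origin recognition complex, did not pass (log2 -0.00, SE 0.054, edgeR adjusted p = 0.973). ORC1, the largest subunit of that complex, stood at 16.1, 14.2, 15.02 and 15.99 CPM in the control libraries and 14.9, 14.8, 14.8 and 12.9 CPM in the knockdown libraries. Its values overlapped between groups, with knockdown replicate 4 below the rest (log2 -0.09, SE 0.066, edgeR adjusted p = 0.239). The other 4 ORC subunits belong to the wider pathway list and were looked at after their values were seen. ORC2 (log2 -0.30), ORC3 (log2 -0.26) and ORC4 (log2 -0.51) fell, and ORC5 had a log2 change of -0.12 that did not pass (edgeR adjusted p = 0.0785).

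The 6 genes of the MCM2-7 helicase, a ring with 1 copy of each subunit, diverged from each other. MCM5 rose, MCM3 and MCM6 fell, and MCM2, MCM4 and MCM7 did not pass. MCM6 stood at 139, 135, 132 and 139 CPM in the control libraries and 98.9, 98.6, 97.3 and 101 CPM in the knockdown libraries. No library of one group came near the other, and the fall was 27.4% (log2 -0.46, SE 0.0327, edgeR adjusted p = 1.3e-12). MCM5 stood at 129.9, 123, 121 and 117 CPM in the control libraries and 158, 146, 155 and 146 CPM in the knockdown libraries. The lowest knockdown value lay above the highest control value (log2 0.30, SE 0.0363, edgeR adjusted p = 6.45e-08). MCM3 fell from 226 ± 4.52 to 209.6 ± 1.93 CPM (SD, n = 4, log2 -0.11, SE 0.03, edgeR adjusted p = 0.00272), also without overlap. The log2 changes of MCM2, MCM4 and MCM7 were 0.04, 0.02 and 0.04, with edgeR adjusted p = 0.379, 0.627 and 0.336. The summed level of the 6 genes was 1217 to 1227 CPM in control and 1199 to 1226 CPM in knockdown libraries, ranges that overlap.

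Ratios between subunits within a library do not depend on library scaling, and they differed between groups for most MCM pairs. The level of MCM5 relative to MCM6, per length, was 0.507 ± 0.024 in control and 0.858 ± 0.0424 in knockdown libraries (SD, n = 4, two-sided exact permutation p = 0.0286). MCM2 relative to MCM7 was 0.538 ± 0.0107 and 0.537 ± 0.00987 (exact permutation p = 0.886). Over all pairs within MCM2-7, the groups did not overlap in 12 of 15, and the 3 that overlapped were those among MCM2, MCM4 and MCM7. Across 4 complexes 34 pairs were compared, and 24 did not overlap, each at the smallest exact permutation p of 0.0286 (0.0405 after Benjamini-Hochberg adjustment over the 34). Among all 139821003 pairs of tested genes with counts in every library, 42.4% did not overlap. The median control level was 19.0 CPM over all genes tested and 69.6 CPM over the members. The 34 pairs were chosen after the fold changes had been seen and reuse the same genes, so their p-values are not independent. Each of the 12 MCM pairs without overlap includes MCM3, MCM5 or MCM6, the MCM2-7 genes already called above.

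**Figure D2:**
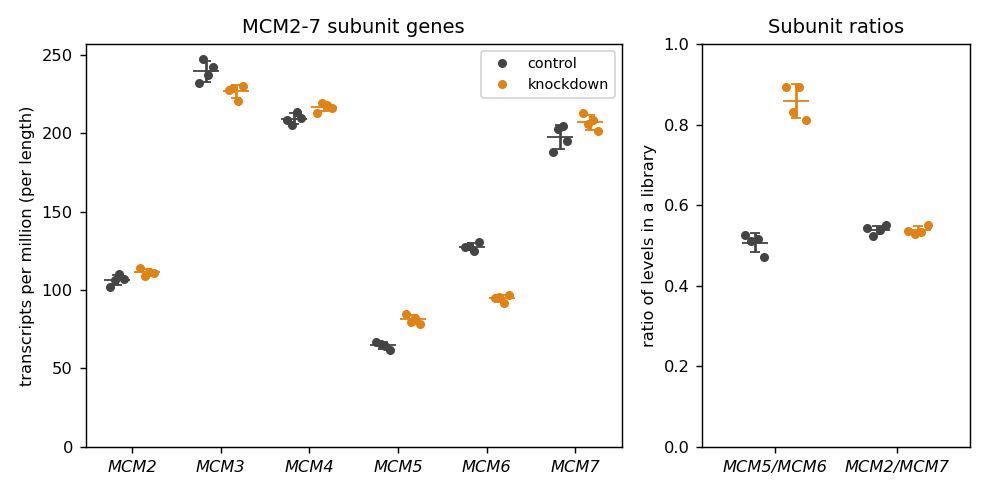
Left, level per length (TPM) of the 6 MCM2-7 subunit genes in each of 4 control (grey) and 4 knockdown (orange) libraries, and right, the within-library ratios of MCM5 to MCM6 and of MCM2 to MCM7. Points are libraries, and bars show the mean and SD. The MCM5/MCM6 ratio moved from 0.507 to 0.858 without overlap, while MCM2/MCM7 stayed at 0.538 and 0.537.

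Genes that turn the loaded helicase into an active one also split. GINS4, a subunit of the GINS complex, stood at 31.8, 34.8, 32.5 and 31.6 CPM in the control libraries and 45.2, 46.8, 45.8 and 41.99 CPM in the knockdown libraries. The groups were far apart, a 1.38-fold rise (log2 0.46, SE 0.0467, edgeR adjusted p = 2.1e-09). GINS1 stood at 73.4, 76.7, 74.9 and 72.7 CPM in the control libraries and 62.3, 64.7, 71.1 and 58.4 CPM in the knockdown libraries. Every knockdown value was below every control value (log2 -0.22, SE 0.0454, edgeR adjusted p = 0.000306). GINS2 fell from 35.6 ± 1.58 to 30.7 ± 1.72 CPM (SD, n = 4, log2 -0.22, SE 0.0493, edgeR adjusted p = 0.000502), and control replicate 1 was the lowest of its control libraries at 33.3 CPM. GINS3 had a log2 change of 0.12 that did not pass (edgeR adjusted p = 0.0601), although its groups did not overlap. Ratios between GINS genes reuse the same genes and were chosen after the fold changes had been seen. Of these 6 ratios, 5 did not overlap between groups, against 42.4% of all pairs of tested genes with counts in every library. The exception was GINS1 to GINS2, at 1.68 ± 0.0732 in control and 1.68 ± 0.0494 in knockdown libraries (SD, n = 4).

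CDC45, which joins MCM2-7 and GINS in the active helicase, rose (log2 0.19, SE 0.0568, edgeR adjusted p = 0.00696), and MCM10, which promotes its activation, fell (log2 -0.19, SE 0.0549, edgeR adjusted p = 0.00581). Both had groups that overlapped. CDC45 was at 25.4 CPM in knockdown replicate 4 and at 29.1 to 31.4 CPM in the other knockdown libraries, against 24.5 to 26.6 CPM in control libraries. CLSPN, for the checkpoint mediator claspin at the fork, stood at 68.3, 71.3, 72.8 and 66.5 CPM in the control libraries and 76.4, 73.6, 66.2 and 69.3 CPM in the knockdown libraries. These values were interleaved (log2 0.03, SE 0.0425, edgeR adjusted p = 0.518).

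The clamp gene PCNA did not pass, and of 5 genes for its loader 1 rose and 2 fell. PCNA, for the clamp that tethers polymerases to DNA, was the highest member per length at 1106 ± 43.7 TPM in control libraries and stood at 412, 407, 426 and 439 CPM in the control libraries and 413, 422, 440.3 and 414 CPM in the knockdown libraries. The values were interleaved (log2 0.00, SE 0.0321, edgeR adjusted p = 0.935). RFC1, the large subunit of the clamp loader, stood at 106, 105, 103 and 105 CPM in the control libraries and 87.3, 101, 87.2 and 94.1 CPM in the knockdown libraries. All 4 knockdown values were below the control values, with knockdown replicate 2 the closest (log2 -0.18, SE 0.0402, edgeR adjusted p = 0.000467). RFC3 fell from 47.6 ± 1.43 to 41.8 ± 2.99 CPM (SD, n = 4, log2 -0.19, SE 0.0468, edgeR adjusted p = 0.00124), also without overlap. RFC5 stood at 28.6, 29.04, 30.2 and 27.9 CPM in the control libraries and 33.7, 33.1, 32.9 and 29.5 CPM in the knockdown libraries. Knockdown replicate 4 lay inside the control range and the other 3 lay above it (log2 0.16, SE 0.0497, edgeR adjusted p = 0.00862). RFC2 (log2 -0.07, edgeR adjusted p = 0.155) and RFC4 (log2 -0.10, edgeR adjusted p = 0.069) did not pass, but RFC4 passed without control replicate 1 (edgeR adjusted p = 0.0342) or knockdown replicate 2 (0.0295). Of the 10 ratios between the 5 RFC genes, 4 did not overlap between groups, and each of the 4 included RFC5, a share near the 42.4% of all gene pairs.

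Among the polymerase members POLD1 and POLE rose, the primase gene PRIM1 fell, and POLA1 and POLA2 did not pass. PRIM1, the catalytic primase that makes RNA primers, stood at 25.2, 25.97, 24.8 and 24.3 CPM in the control libraries and 17.1, 18.97, 19.3 and 19.4 CPM in the knockdown libraries. The groups were clearly separate, with a fall of 25.4% (log2 -0.42, SE 0.0541, edgeR adjusted p = 1.43e-07). POLD1, the catalytic subunit of polymerase delta, stood at 62.8, 59.3, 64.7 and 59.8 CPM in the control libraries and 74.5, 74.1, 72.7 and 71.6 CPM in the knockdown libraries. Its knockdown values all exceeded its control values (log2 0.25, SE 0.0376, edgeR adjusted p = 2.21e-06). POLE, the catalytic subunit of polymerase epsilon, rose from 116 ± 6.25 to 134 ± 8.25 CPM (SD, n = 4, log2 0.22, SE 0.044, edgeR adjusted p = 0.000338), with control replicate 1 at 125 CPM above knockdown replicate 4 at 122 CPM. POLA1 and POLA2, which form polymerase alpha with the primase, had log2 changes of -0.07 and 0.01 that did not pass (edgeR adjusted p = 0.168 and 0.876). POLA1 relative to PRIM1, per length, was 1.01 ± 0.0547 in control and 1.29 ± 0.107 in knockdown libraries (SD, n = 4). The exact permutation p was 0.0286, or 0.0405 after Benjamini-Hochberg adjustment over the 34 ratios. This ratio was chosen after the fold changes had been seen and reuses PRIM1, already called above. All 3 ratios among POLA1, POLA2 and PRIM1 did not overlap between groups, against 42.4% of all pairs of tested genes with counts in every library. The accessory subunits of both replicative polymerases were looked at after their values were seen. POLE2 (log2 0.17), POLE3 (log2 0.13) and POLE4 (log2 0.26) rose, as POLE did. POLD2 fell (log2 -0.14), and POLD3 (log2 -0.09) and POLD4 (log2 -0.05) did not pass. 35.1% of the exon bases of POLA2 are shared with AP000944.2 on the same strand.

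Proteins that coat single-stranded DNA and join Okazaki fragments were represented by 4 genes. RPA1, the large subunit of replication protein A, stood at 230.5, 229, 229 and 229 CPM in the control libraries and 244, 241, 254 and 232 CPM in the knockdown libraries. The control values lay within 2 CPM of each other and below all knockdown values, and the change was small (log2 0.08, SE 0.0316, edgeR adjusted p = 0.038). The call for RPA1 was lost without any 1 library other than knockdown replicate 2 or 4 (edgeR adjusted p = 0.0516 to 0.161). RPA2 had a log2 change of 0.08 that did not pass (edgeR adjusted p = 0.145). LIG1, the ligase that seals Okazaki fragments, stood at 94.2, 88.4, 95.1 and 92.8 CPM in the control libraries and 128, 115, 120.0 and 105 CPM in the knockdown libraries. All knockdown libraries were above control, replicate 1 most and replicate 4 least (log2 0.34, SE 0.0498, edgeR adjusted p = 2.95e-05). FEN1, the nuclease that trims flaps before ligation, was at 139 ± 2.98 CPM in the controls and 139.6 ± 7.72 CPM after knockdown (SD, n = 4, log2 0.00, edgeR adjusted p = 0.937).

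In deoxynucleotide supply, both thymidylate enzymes rose and the ribonucleotide reductase genes did not pass. TK1, the thymidine kinase of the salvage route, stood at 96.6, 98.4, 98.9 and 96.3 CPM in the control libraries and 124, 115, 119.9 and 109.6 CPM in the knockdown libraries. The groups did not overlap (log2 0.26, SE 0.0364, edgeR adjusted p = 5.19e-07). TYMS, thymidylate synthase of the de novo route, rose from 295 ± 4.53 to 345 ± 15.6 CPM (SD, n = 4, edgeR adjusted p = 1.24e-06). Exons of TYMS overlap those of ENOSF1 on the other strand over 39.2% of their length, and ENOSF1 had a log2 change of -0.21. RRM1, the large subunit of ribonucleotide reductase, stood at 241, 247, 244 and 243 CPM in the control libraries and 234, 243, 249 and 229.7 CPM in the knockdown libraries. Its values overlapped (log2 -0.03, SE 0.0317, edgeR adjusted p = 0.476). RRM2, the small subunit, was at 184, 199, 201 and 163 CPM in knockdown libraries, of which replicate 4 fell in the control range of 161 to 172 CPM (log2 0.17, SE 0.0638, edgeR adjusted p = 0.0553). Without knockdown replicate 4 the change of RRM2 passed the test (log2 0.23, edgeR adjusted p = 9.42e-06). The summed level of the 4 genes was 793 to 810.3 CPM in control and 832 to 937 CPM in knockdown libraries, without overlap. This absence of overlap rested on TYMS, at 289 to 299 CPM in control and 330 to 366 CPM in knockdown libraries. Without TYMS the sum in knockdown replicate 4 lay inside the control range.

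The genes for chromatin behind the fork changed in both directions. CHAF1A, the large subunit of the histone chaperone CAF-1, stood at 68.1, 69.7, 71.01 and 68.96 CPM in the control libraries and 84.8, 84.3, 80.3 and 74.6 CPM in the knockdown libraries. All knockdown values were above control (log2 0.22, SE 0.0395, edgeR adjusted p = 2.5e-05). CHAF1B, its middle subunit, rose by less (log2 0.11, SE 0.044, edgeR adjusted p = 0.033), with groups that overlapped, and its call was lost without any 1 of control replicates 1, 2 and 4 or knockdown replicates 1 and 3 (edgeR adjusted p = 0.064 to 0.12). UHRF1, which brings the maintenance DNA methyltransferase to the new strand, stood at 100.1, 102, 97.4 and 97.4 CPM in the control libraries and 95.5, 92.8, 91.1 and 92.4 CPM in the knockdown libraries. Its groups were narrowly apart (log2 -0.10, SE 0.0337, edgeR adjusted p = 0.0183), and the call was lost without control replicate 2 (edgeR adjusted p = 0.0753).

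The spread of the members within a group was described by their coefficient of variation. The median value was 3.02% over control and 4.74% over knockdown libraries, and 33 of 46 members varied more in knockdown. Over all genes tested the medians were 5.43% and 6.05%, and how many of them varied more in knockdown was not counted. The members had a higher median control level, 69.6 CPM against 19.0 CPM, and its part in the spread was not tested. Knockdown replicate 4 had the lowest value of the knockdown libraries for 24 of 46 members (52.2%), against 25.0% of all genes tested. The median log2 level of the members against the control mean was 0.05, 0.03, 0.05 and -0.03 in knockdown replicates 1 to 4. Low members in replicate 4 included genes that rose, such as LIG1, TK1 and CHAF1A, and genes that fell, such as GINS1. Without this library 17 members rose and 12 fell, and 7 passed the 1.2-fold test.

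**Figure D3:**
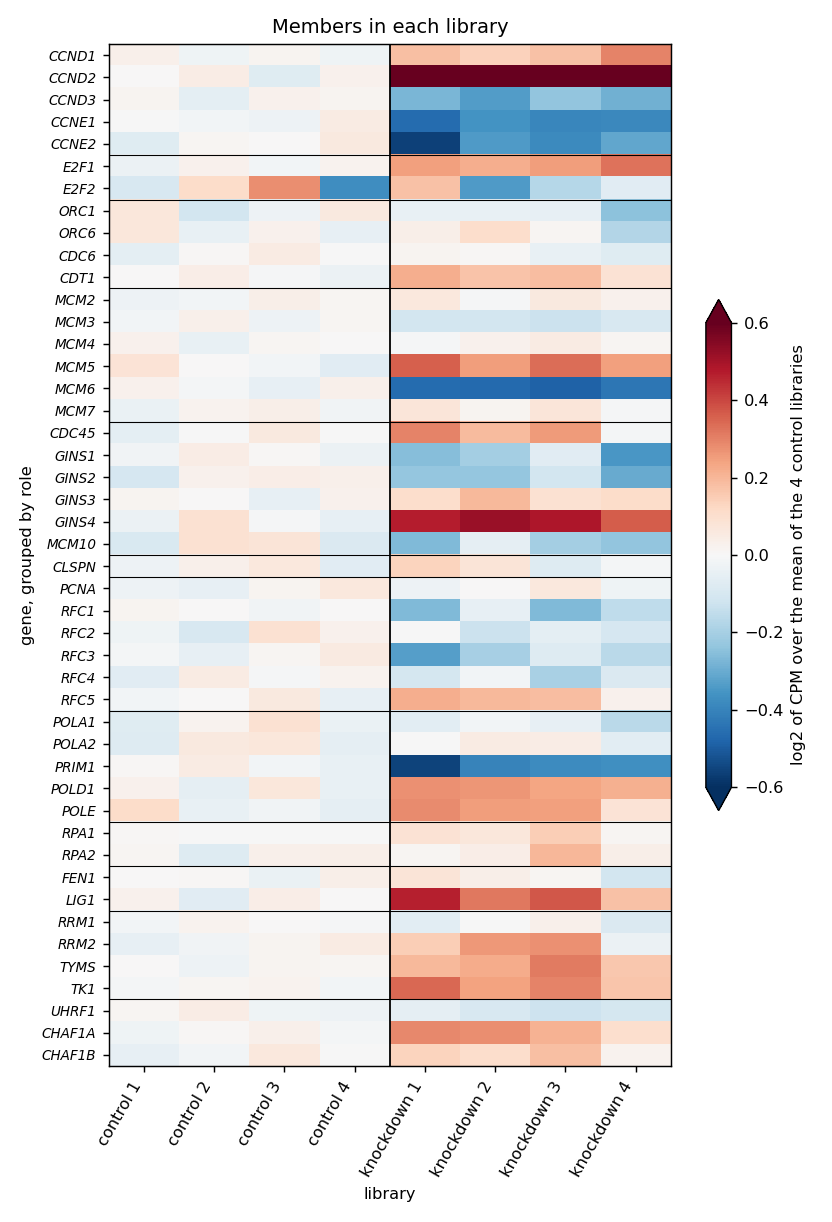
Level of each member (rows, grouped by role) in each of the 8 libraries (columns), as log2 of CPM over the mean of the 4 control libraries. The colour scale ends at 0.6 in both directions, which CCND2 exceeds in every knockdown library. Knockdown replicate 4 is the lowest knockdown library for 24 of 46 members, and MCM6, PRIM1 and CCNE1 are blue and GINS4 and CCND2 red in all 4 knockdown libraries.

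A wider list of 84 genes of the same pathway, none of them a member, also held rises and falls. Of these, 24 rose (28.6%), 25 fell (29.8%) and 35 did not pass, close to the 25.2% and 25.9% of all tested genes. Their median log2 change was -0.02. Past the 1.2-fold test, 6 rose and 10 fell, together 19.0%. Among all tested genes 8.9% rose and 7.44% fell past this fold, together 16.3%. By adjusted p the 4 leading rises were CDKN1A, E2F7, CDKN2B and CDK6. CDKN1A, for the kinase inhibitor p21, stood at 962, 972, 994 and 1012 CPM in the control libraries and 1487, 1414, 1486 and 1484 CPM in the knockdown libraries. No value overlapped (log2 0.58, edgeR adjusted p = 2.56e-15). CDKN2B, for the cyclin D kinase inhibitor p15, rose from 75.5 ± 2.15 to 108 ± 4.28 CPM and CDK6, a partner of the D cyclins, from 253 ± 2.86 to 327 ± 10.97 CPM (SD, n = 4). E2F7, a repressor of E2F target genes, rose from 119.9 ± 5.05 to 170.1 ± 1.499 CPM (log2 0.51). The part of the list with 14 G1/S kinases, inhibitors and regulators such as SKP2 and MYC held CDKN1A, CDKN2B and CDK6 but not E2F7. In it 4 genes rose, 3 fell and 7 did not pass, the last including CDK2 (log2 0.00) and CDK4 (log2 -0.03).

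Falls in the wider list were found in several steps. The largest, named after its values were seen, was that of E2F5, an E2F that acts with RB family repressors, from 10.7 ± 1.199 to 5.200 ± 0.725 CPM (SD, n = 4, log2 -1.03, SE 0.101, edgeR adjusted p = 1.37e-09). RBL2, an RB family protein of quiescent cells, fell from 96.7 ± 1.88 to 69.9 ± 2.88 CPM, and SKP2, which marks the inhibitor p27 for degradation, from 50.7 ± 0.982 to 37.02 ± 1.701 CPM (SD, n = 4). Of 16 further genes for licensing and firing of origins 8 fell (50%) and 5 rose (31.25%), where 25.9% of all tested genes fell and 25.2% rose. ORC4 fell from 50.8 ± 0.927 to 35.7 ± 2.47 CPM, and DBF4, the activator of the CDC7 kinase that fires origins, fell from 22.5 ± 1.52 to 14.3 ± 0.862 CPM (SD, n = 4). GMNN, for the CDT1 inhibitor geminin, fell (log2 -0.14, edgeR adjusted p = 0.0123), with overlapping groups. RB1 (log2 -0.06) did not pass. Among 21 further fork and polymerase genes 9 rose (42.9%) and 5 fell (23.8%), and of 7 checkpoint genes 0 rose and 2 fell (28.6%).

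Genes of G2 and mitosis, a list chosen with earlier results of these data known, moved in 1 direction in the same libraries. All 35 of them fell, 30 past the 1.2-fold test, and 34, all but FOXM1, did not overlap between groups. Among all genes tested, 25.9% fell, 7.44% fell past this fold and 23.2% were lower without overlap. The median log2 change was -0.55 over the 35 genes, beside 0.01 for the 46 members. CCNB1, for cyclin B1 of the mitotic kinase, stood at 116, 119, 111 and 122 CPM in the control libraries and 61.7, 62.5, 62.3 and 59.4 CPM in the knockdown libraries. The groups were far apart, and the knockdown mean was 52.6% of the control mean (log2 -0.93, edgeR adjusted p = 2.71e-18). HMMR fell from 44.9 ± 2.35 to 17.7 ± 1.11 CPM and the mitotic kinase gene PLK1 from 41.8 ± 0.941 to 18.04 ± 0.76 CPM (SD, n = 4). The summed level of the 35 genes was 3156 to 3241 CPM in control and 1982 to 2310.2 CPM in knockdown libraries, without overlap. Knockdown replicate 4 was again the lowest knockdown library, for 28 of the 35 genes (80%), against 25.0% of all genes tested. The difference between both lists was not tested.

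**Figure D4:**
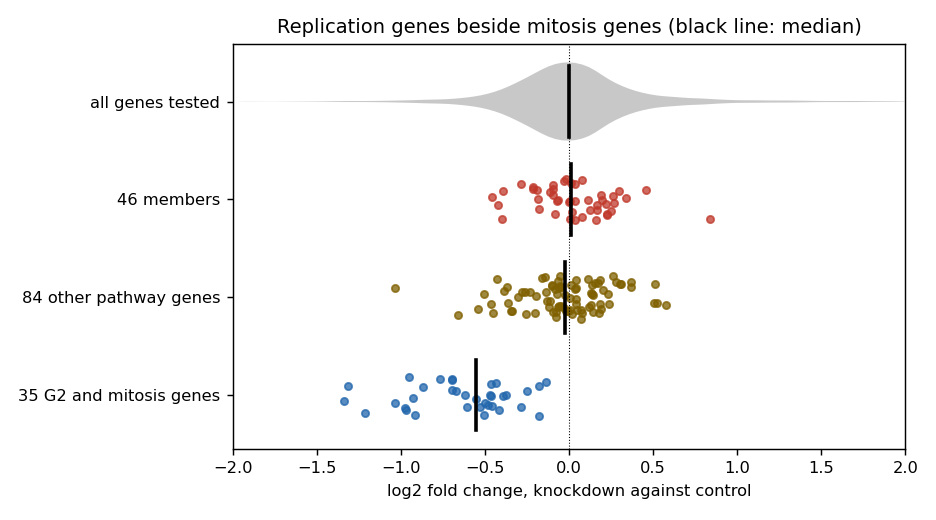
Log2 fold change of knockdown against control for all 16884 genes tested (grey shape, drawn between -2 and 2), the 46 members (red), the 84 other pathway genes (brown) and the 35 G2 and mitosis genes (blue), with the median of each as a black line. Members lie on both sides of 0 with a median of 0.01, and all G2 and mitosis genes lie below 0 with a median of -0.55. The lists were chosen with earlier results of these data known.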

How the data were processed

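The authors' deposited table holds 1 column of whole numbers per library, read here as raw counts per gene, with versioned Ensembl identifiers. The submitters' processing notes name FastQC, STAR, featureCounts, DESeq2 and hg19. Tool versions, annotation and whether counting used strand are not stated there. Of 60609 rows, 1 with a missing cell and 44 pseudoautosomal copies were left out. Symbols were matched for 60295 genes. Counts were used as deposited. Genes were filtered with filterByExpr by group, scaled by TMM and compared with the quasi-likelihood F test of edgeR 4.0.16 (limma 3.58.1, R 4.3.3), robust, with Benjamini-Hochberg adjustment over 16884 genes and a threshold of 0.05. SE was derived from the F statistic. CPM used TMM-scaled library sizes, and TPM-like levels used union exon lengths of GENCODE 29, which annotates GRCh38. Levels of CCND3, ORC6, RFC4 and POLE moved over 1.5-fold with the longest transcript as length.

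The members and lists were chosen with earlier results of these data known. All members were named by role, with values in every library for the smallest adjusted p of each direction in a role. Of other pathway genes, up to 4 rises and 4 falls with the smallest adjusted p and CDKN1A, RB1, CDK4, CDK6, CDK2 and GMNN were named, and up to 3 genes of the comparison list. A few listed genes are not reported here. Genes named outside this rule are said to be chosen after their values were seen, except for partners that share exons and for marker genes. Alternatives were other scalings, filters, DESeq2 1.42.0, the replicate number as a block and the omission of each library. The test was tried on simulated data. No 2 libraries of a group agreed within sampling noise. The total counts limit precision for genes of few counts, such as E2F2.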

Additional observations from a re-analysis of the deposited data

Results flagged for a closer look

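In 4 of 92 groups of 4 libraries (46 members in 2 groups), 1 library lay far from the other 3, and chance alone gives about 1 in 20 such groups. CCND3 was lowest in control replicate 2 at 85.3 CPM, against 89.6 to 90.3 CPM in the other control libraries. ORC1 was lowest in knockdown replicate 4 at 12.9 CPM, against 14.8 to 14.9 CPM in the other knockdown libraries. GINS2 was lowest in control replicate 1 at 33.3 CPM, against 36.2 to 36.6 CPM. RPA2 was highest in knockdown replicate 3 at 67.6 CPM, against 59.3 to 60.5 CPM.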

How the results depend on the processing

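The counts of members that rose and fell stayed within 1.5 times of the reported 16 and 12 under every alternative run, with 14 to 19 rises and 11 to 13 falls. Without each library in turn there were 14 to 17 rises and 11 to 13 falls, and the median log2 change of the members ran from 0.00 to 0.04. At a minimum fold of 1.5 instead of 1.2, 1 member passed. With the replicate number as a block in the fit, 16 members rose and 13 fell, RFC4 being gained (log2 -0.10, edgeR adjusted p = 0.0492). Same-numbered deviations correlated at 0.05, 0.04, 0.00 and 0.06, and differently numbered ones at -0.08 to 0.03. Knockdown replicates 1, 2 and 4 correlated best with the control of their own number, and knockdown replicate 3 did not. Correlations this weak do not settle whether the numbers pair the libraries. Beyond the omitted libraries, the Wald test of DESeq2 lost CHAF1B (adjusted p = 0.0965) and gained RRM2 (0.00817). Upper quartile scaling lost UHRF1 and gained GINS3, RPA2 and RRM2. Leaving out the filter lost RPA1 and CHAF1B and gained RRM2, and scaling by total counts or a filter of 1 CPM gained GINS3 and RRM2. No called member changed sign. How reads in exons shared by several genes were counted is not stated, and its part in the results was not tested.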
